A study of Mus musculus with 4 samples.

Results

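Ahnak, 4 S100 genes (S100a4, S100a6, S100a10 and S100a11) and 5 annexin genes (Anxa1, Anxa2, Anxa4, Anxa5 and Anxa6) were examined in group 2 innate lymphoid cells (ILC2s), the tissue-resident lymphocytes that make type 2 cytokines. These 10 genes, of 22554 in the table, were chosen by name as calcium-binding proteins and a scaffold at the plasma membrane, with earlier results of the same 4 libraries known, and all 10 passed the filter on low counts. The ILC2s were sorted from lungs of wild-type BALB/c mice aged 6 weeks and cultured with IL-2, IL-7 and IL-33. In the 2 vehicle libraries the cells received the carrier alone, and in the 2 5D libraries they received compound 5D, a small molecule that blocks Orai channels. All 4 libraries share the IL-33 activation, so none shows resting cells. The labels call the culture overnight, whereas the study's methods give 24 h. They do not say whether the libraries came from separate mice or cultures, so the spread between libraries may be technical.

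Orai channels open when the endoplasmic reticulum has run out of calcium and let more in from outside. S100 proteins are small EF-hand proteins that mostly bind calcium and then grip a target protein, and annexins bind acidic membrane lipids when calcium rises. S100a10 sits on Anxa2 as a heterotetramer, S100a11 pairs with Anxa1, and the giant scaffold Ahnak is recruited to the plasma membrane by the S100a10 and Anxa2 complex. Together they are known for linking membranes to the actin cortex and for sealing membrane wounds.

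The libraries held between 20096513 and 28697196 counts, a depth at which the least abundant of the 10 genes, Anxa4, still had at least 654 counts per library. The ILC2 markers, with Gata3 and Il1rl1 among them, summed to 5638 to 6115 normalized CPM. Of these 10 genes 4 differed at an unadjusted p under 0.05 and 0 after adjustment over all genes in edgeR. Il2ra (2221 and 2068 with vehicle, 1771 and 1874 with 5D), Klrg1 and Thy1 were lower with 5D, and Il1rl1 was higher. Over all 17650 genes tested, 678 were lower and 618 higher at that unadjusted p. Normalized CPM is a count put on a common library total (the usual CPM) after scaling by the upper quartile, so that libraries of unequal depth compare. Neutrophil and macrophage markers, which matter here because myeloid cells carry much S100 and annexin RNA, summed to at most 1.05 and 5.75. Mast cell and basophil markers summed to 1.70 to 4.69, and Ccr3, an eosinophil marker, had 3.88 to 5.05. Of the markers listed, 4 of 6 for macrophages and 1 of 4 for eosinophils had a row among the counts. S100a9 was at 0 in all 4 libraries, while the neutrophil marker Cxcr2 had 0 and 1 counts with vehicle and 10 and 24 with 5D, at an unadjusted edgeR p of 0.00404. T cell markers summed to 26.0 to 27.6, mostly Cd3g (21.6 to 24.6) with some Cd3e (2.76 to 4.13), and epithelial markers to 25.6 to 28.3, nearly all of it Epcam, with Scgb1a1 and Krt8 at 0. Pecam1, the endothelial marker analysed here, had 23.7 and 21.3 normalized CPM with vehicle and 19.9 and 15.7 with 5D. The part of Cxcr2 or Pecam1 expressing cells in the differences below was not tested.

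The sequences that set the 4 S100 proteins apart are shown first, since this loop is one of the sites where S100 proteins hold calcium. Each line gives 54 bases of coding sequence from the mm10 transcripts, 5′ to 3′ on the plus strand of chromosome 3, with the 12 codons of the second (canonical) EF-hand loop in capitals.
S100a4: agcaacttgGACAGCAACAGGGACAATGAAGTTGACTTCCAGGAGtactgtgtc
S100a6: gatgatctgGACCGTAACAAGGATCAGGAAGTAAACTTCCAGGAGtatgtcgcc
S100a11: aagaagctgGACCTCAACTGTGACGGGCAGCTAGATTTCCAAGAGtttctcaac
S100a10: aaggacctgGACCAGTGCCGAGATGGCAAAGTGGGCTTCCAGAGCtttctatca

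The first 3 loops, at chr3:90605776-90605829, chr3:90614224-90614277 and chr3:93526028-93526081, met a loop pattern with aspartate at position 1, aspartate, asparagine or serine at positions 3 and 5, and glutamate at position 12. The S100a10 loop, at chr3:93564279-93564332, did not meet it and was placed by alignment to S100a4. S100a10 is known as the S100 protein that has lost calcium binding and stays bound to Anxa2. In the translated coding sequences, pairs of the 4 S100 proteins shared between 26.7% (S100a6 and S100a10) and 50.6% (S100a4 and S100a6) of aligned residues. Pairs of the 5 annexins shared between 41.6% (Anxa1 and Anxa5) and 58.6% (Anxa5 and Anxa6).

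Ahnak lies at chr19:8989284-9076914 on the plus strand of mm10 and has a coding sequence of 16968 bases in a longest transcript of 18100. Its protein is built of repeats, and 53.7% of its 5656 codons lay in words of 10 residues that occur more than once, most often spaced by 128 residues. Anxa1 lies on the same chromosome at chr19:20373428-20390944. The 4 S100 genes are on chromosome 3 in 2 groups, S100a4 (chr3:90603771-90606045) with S100a6 (chr3:90612882-90624181), and S100a11 (chr3:93520488-93526287) with S100a10 (chr3:93555080-93564643). Anxa5 is on the same chromosome at chr3:36448923-36475894, and Anxa2, Anxa4 and Anxa6 are at chr9:69453620-69491795, chr6:86736840-86793584 and chr11:54979108-55033445.

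Ahnak was the member with the largest difference between the groups. It had 241 and 258 normalized CPM with vehicle and 192 and 187 with 5D, so both 5D libraries were below both vehicle libraries. The means were 249 ± 12.2 and 190 ± 3.88 (SD, n = 2), a log2 fold change of -0.39 (SE 0.055). The difference between the groups was larger than the spread within either. Ahnak's raw counts were 5594 and 5165 with vehicle against 5223 and 5346 with 5D, which overlap, so the lower level is one relative to the larger 5D libraries. In bulk RNA, fewer cells with the transcript and less of it per cell cannot be told apart.

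Ahnak was called lower in edgeR's quasi-likelihood test, and no other member was called in either direction. Over all 17650 genes tested, 0.068% were called lower and 0.0283% higher at an adjusted p-value under 0.05. The members were chosen with results of these libraries known, so nothing is read from this call beyond the values themselves. Leaving out 5D replicate 2 gave -0.38 and ended the call, and leaving out any of the other 3 libraries kept it.

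**Figure D1:**
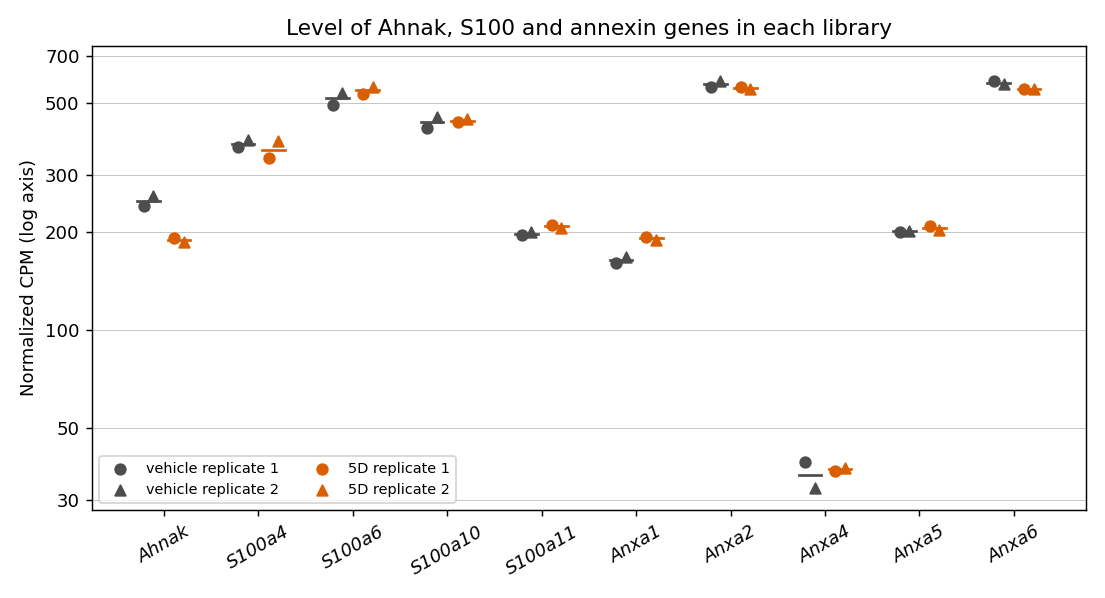
Normalized CPM of the 10 genes in each library on a log axis, with vehicle libraries in grey, 5D libraries in orange and the group mean as a line. Ahnak (249 against 190 on average) and Anxa1 (164 against 192) show the widest gaps between the groups, in opposite directions.

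The genes with the longest coding sequences mostly had lower values with 5D, and Ahnak is one of them. Among 8681 genes of at least 10 normalized CPM with an annotated length, Ahnak ranked 6 by coding sequence and 14 by longest transcript. Of the other 19 genes among the 20 longest coding sequences, which include the cytoskeletal linkers Syne1, Dst, Macf1 and Plec, 16 had a negative log2 fold change, with a median of -0.15, whereas 48.2% of all 8681 were negative, with a median of 0.0046. Ahnak differed from that median of -0.15 by -0.25 on the log2 scale, and only the ribosome assembly ATPase Mdn1 (-0.40) was as low among the 19. Macf1 had -0.37, and Syne2 had the highest value at 0.13.

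None of these 19 genes was called in edgeR's quasi-likelihood test, 4 were lower at an unadjusted p under 0.05, and DESeq2's Wald test called 1. Of all 8681 genes, 4.56% were lower at that unadjusted p. Without vehicle replicate 1 the median of the 19 was -0.061, 11 were lower and the values ran from -0.64 to 0.15. Without any of the other 3 libraries 14 to 16 were lower. The median log2 fold change was -0.074 for the 83 genes with transcripts over 12 kb and -0.022 for the 366 between 8 and 12 kb. It lay between -0.0056 and 0.011 in the 4 classes of shorter transcripts. By union exon length the median was -0.0099 for the 487 genes over 12 kb, of which 52.8% were lower. For the 1117 genes between 8 and 12 kb it was 0.0024, so the pattern depends on the length used. Ahnak kept its call with a correction on the union length of the exons (-0.38), but lost it with a narrower correction on the length of the longest transcript (-0.33), which was chosen after seeing the data. The part of transcript length in the Ahnak difference was not tested further.

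**Figure D2:**
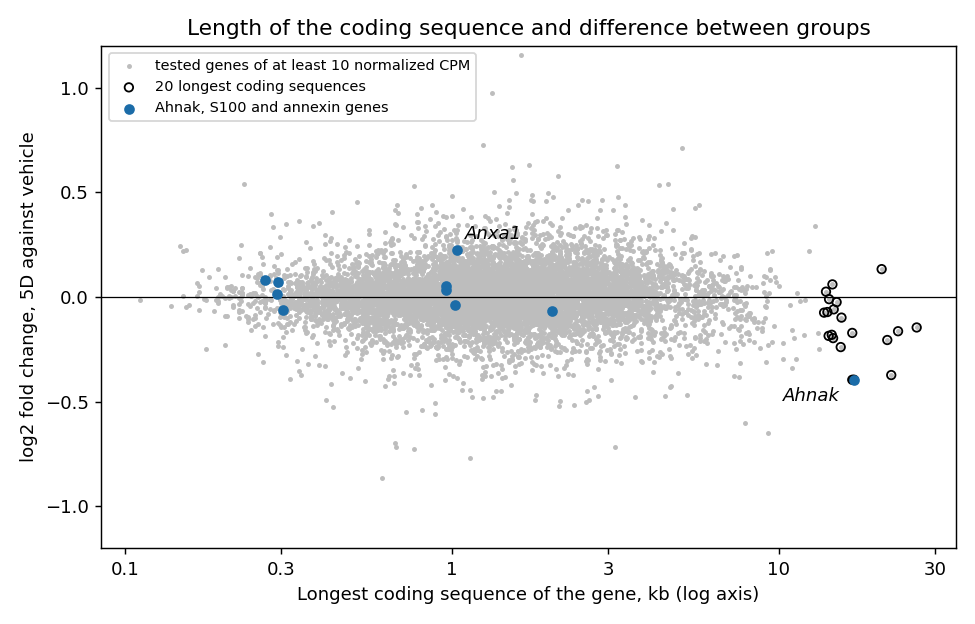
Log2 fold change of 5D against vehicle on the y axis and the length of the longest coding sequence in kb on a log x axis, for genes of at least 10 normalized CPM with a coding sequence (grey). Open circles are the 20 longest coding sequences, of which Ahnak and 16 others lie below 0, and blue points are the 10 genes examined, with the S100 and most annexin genes near 0, while 1 gene lies outside the y axis.

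The promoter of Ahnak is shown because its level differed most between the groups, and that of S100a11 because it holds 2 matches to the AP-1 site, which calcium signals are known to act on. The 250 bases before each RefSeq start were read from GRCm38.p6 on the plus strand, at chr19:8989034-8989283 and chr3:93520246-93520495, with motif matches in capitals.
Ahnak: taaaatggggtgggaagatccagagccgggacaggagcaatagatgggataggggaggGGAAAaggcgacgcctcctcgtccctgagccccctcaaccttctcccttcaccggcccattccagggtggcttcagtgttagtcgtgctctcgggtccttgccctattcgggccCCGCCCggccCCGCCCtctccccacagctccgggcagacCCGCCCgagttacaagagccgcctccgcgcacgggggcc
S100a11: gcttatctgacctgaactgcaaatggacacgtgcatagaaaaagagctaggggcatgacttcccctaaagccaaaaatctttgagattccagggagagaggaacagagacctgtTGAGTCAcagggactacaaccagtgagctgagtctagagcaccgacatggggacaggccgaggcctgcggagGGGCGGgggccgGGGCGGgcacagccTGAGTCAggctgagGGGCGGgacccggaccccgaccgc

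The motifs searched on both strands were AP-1 (TGANTCA), the NFAT core (GGAAA), the dioxin-response core (GCGTG), the Sp1 box (GGGCGG), the TATA box (TATAAA) and the CRE (TGACGTCA), and no matches overlapped in these windows. The Ahnak window held 1 NFAT core and 3 Sp1 boxes on the opposite strand, and the S100a11 window 2 AP-1 sites and 3 Sp1 boxes. Of 26994 mouse promoter windows of this length, 55.6% held the NFAT core, 32.9% an Sp1 box and 6.87% an AP-1 site. The NFAT core in the Ahnak window is therefore of a kind that most promoters have. Of the other 6 members with a window, Anxa2 held 1 AP-1 site and 3 Sp1 boxes, and S100a4, Anxa1 and Anxa2 a TATA box, which 12.97% of all windows had. The NFAT core occurred 2 times in the Anxa5 window and 1 time in each of the Anxa1 and Anxa2 windows and in 1 Anxa4 window. All 250 bases of the Anxa1 window and 63 of the Anxa2 window lie in annotated exons. The dioxin-response core, in 28.2% of all windows, occurred 2 times in the Anxa5 window and 1 time in each of the 2 Anxa4 windows. A match in letters describes the sequence and is no evidence of binding.

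Within a library, the ratio of 2 genes' counts is free of any scaling between libraries. It does not cancel a difference between libraries that depends on transcript length. The longest transcript had 18100 bases in Ahnak, 685 in S100a10, 2280 in Anxa2 and 1674 in Anxa1. Ahnak had 0.575 and 0.568 counts per S100a10 count with vehicle and 0.441 and 0.419 with 5D. Relative to Anxa2, the ratio was 0.431 and 0.440 with vehicle and 0.343 and 0.338 with 5D. The ratio of the scaffold to either part of its anchoring complex was therefore lower in both 5D libraries, at 0.752 and 0.782 of the vehicle mean. S100a10 and Anxa2 were nearly level between the groups, so these ratios largely restate the Ahnak difference.

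The ratio of Anxa2 to S100a10 itself moved less. It was 1.33 and 1.29 with vehicle and 1.29 and 1.24 with 5D, the lower vehicle library and the higher 5D library differing by less than the replicates of either group. Relative to Anxa1, Ahnak went from 1.499 and 1.537 counts with vehicle to 0.995 and 0.983 with 5D.

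**Figure D3:**
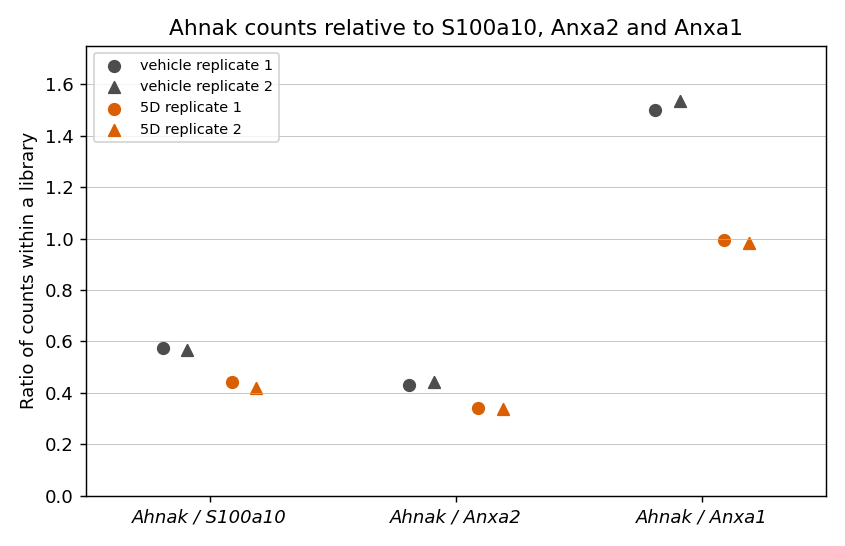
Counts of Ahnak divided by those of S100a10, Anxa2 and Anxa1 in the same library, for vehicle (grey) and 5D (orange), with the y axis from 0. All 3 ratios are lower in both 5D libraries, and the ratio to Anxa1 falls from 1.499 and 1.537 to 0.995 and 0.983.

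S100a10 and Anxa2, the pair that anchors Ahnak, were nearly level between the groups. S100a10 had 419 and 454 normalized CPM with vehicle and 436 and 447 with 5D, a log2 fold change of 0.016 (SE 0.049). Both 5D libraries lay between the vehicle libraries. Anxa2 had 559 and 586 with vehicle and 561 and 553 with 5D, a log2 fold change of -0.039 (SE 0.043), and the groups overlapped. The sign of the S100a10 value turned when vehicle replicate 1 or 5D replicate 2 was left out.

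Anxa1, which restrains cytosolic phospholipase A2 and acts as a ligand of formyl peptide receptors, was the member with the largest difference upwards. It had 161 and 168 normalized CPM with vehicle and 193 and 190 with 5D. The means were 164 ± 5.14 and 192 ± 2.31 (SD, n = 2), a log2 fold change of 0.22 (SE 0.055), and the groups did not overlap. Anxa1 was not called in the test across all genes or under any of the 10 alternatives on all libraries or the 4 that left one out. Its partner S100a11 had 196 and 200 with vehicle and 211 and 206 with 5D, a log2 fold change of 0.074 (SE 0.052), also with no overlap. The ratio of Anxa1 to S100a11 counts was 0.819 and 0.839 with vehicle and 0.915 and 0.924 with 5D.

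S100a11 shares a stretch of 297 bases at 98.99% identity with the gene Gm12854, which had 161 to 228 counts per library, so reads could be split between these genes. Gm7665 matches S100a11 over the same length at 98.65% and had at most 3 counts per library.

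S100a4, which binds nonmuscle myosin, had 366 and 385 normalized CPM with vehicle and 338 and 382 with 5D. Its log2 fold change was -0.060 (SE 0.059), and its sign turned without 5D replicate 1. S100a6, or calcyclin, had 495 and 539 with vehicle and 535 and 560 with 5D, a log2 fold change of 0.083 (SE 0.050). Both genes overlapped between the groups. The ratio of S100a6 to S100a4 was 1.35 and 1.40 with vehicle and 1.58 and 1.47 with 5D, with no overlap. The annotated gene Gm42674 covers 51.7% of the exon bases of S100a4 on the same strand and had 0, 0, 0 and 14 counts in vehicle replicates 1 and 2 and 5D replicates 1 and 2.

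The remaining annexins differed little. Anxa6, the only member with a doubled set of annexin repeats, had 585 and 573 normalized CPM with vehicle and 551 and 554 with 5D, a log2 fold change of -0.067 (SE 0.041) with no overlap. Anxa5, which binds exposed phosphatidylserine, had 201 and 202 with vehicle and 209 and 204 with 5D, or 0.035 (SE 0.051), also with no overlap. Anxa4 had 39.2 and 32.7 with vehicle and 37.0 and 37.7 with 5D. Its log2 fold change of 0.053 (SE 0.11) had the widest error of the set and turned sign without vehicle replicate 2. The ratio of Anxa5 to Anxa4 counts was 5.13 and 6.17 with vehicle and 5.65 and 5.40 with 5D, which overlap. On the opposite strand, Gm16144 overlaps 98 exon bases of Anxa2 and Gm44036 overlaps 75 of Anxa4, and they had at most 9 counts per library, and strand use in the counting is not stated in the sources used here.

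Of the 10 members, 8 were within 0.1 of no difference on the log2 scale, and the median was 0.025 against -0.0016 over all genes tested. The members' median absolute difference was 0.064, close to the 0.061 of the 5436 tested genes whose level was at least that of the lowest member. In 2 members (Ahnak and Anxa6) both 5D libraries were below both vehicle libraries, against 18.8% of all genes, and in 3 members (Anxa1, S100a11 and Anxa5) they were above, against 18.7%. With 10 members these counts are not far from the background shares, and nothing about the set is read from them. Summed normalized CPM was 1527 ± 72.3 with vehicle and 1558 ± 52.3 with 5D for the 4 S100 genes, and 1553 ± 11.6 and 1545 ± 9.73 for the 5 annexins (SD, n = 2).

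**Figure D4:**
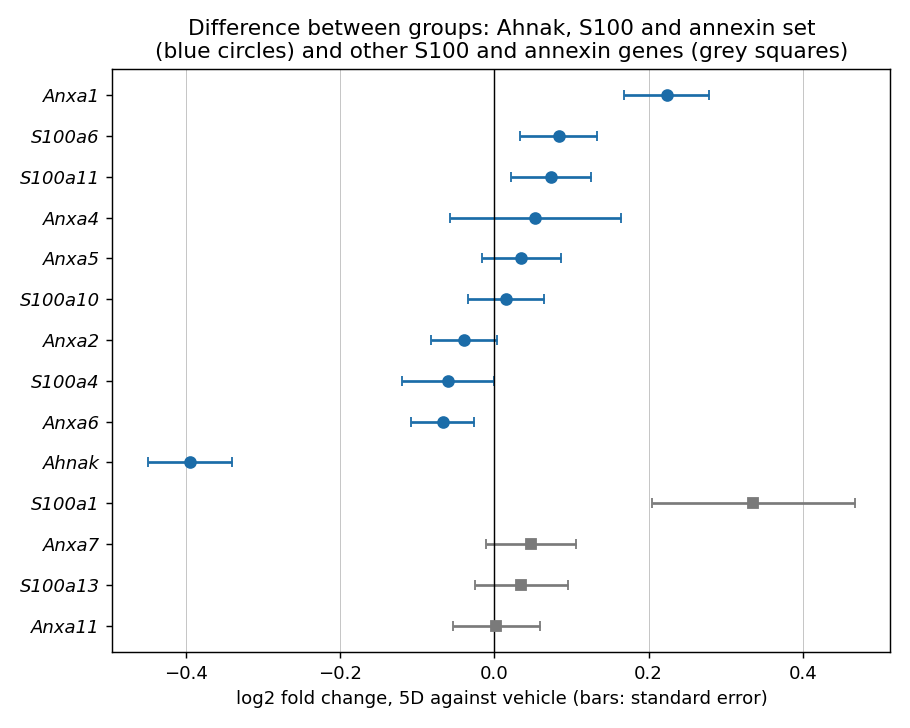
Log2 fold change of 5D against vehicle with its standard error for the 10 members (blue circles) and for other S100 and annexin genes with a vehicle mean of at least 10 normalized CPM (grey squares). Ahnak (-0.39) lies apart from the other members, of which all but Anxa1 (0.22) are within 0.1 of 0.

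Levels between genes were compared per kb of union exon length. With vehicle, S100a4 stood first at 643 ± 22.1 normalized CPM per kb, followed by S100a11 (388 ± 5.53), S100a6 (378 ± 22.9) and S100a10 (360 ± 20.9). The libraries of S100a11 and S100a6 overlapped, as did those of S100a6 and S100a10, so their order is not set beyond the spread. Below them came Anxa6 (197 ± 2.91), Anxa2 (153 ± 5.14), Anxa5 (113 ± 0.230), Anxa1 (56.4 ± 1.77), Ahnak (12.5 ± 0.612) and Anxa4 (7.74 ± 0.996), with no overlap between neighbours over the 4 libraries. Dividing by the longest transcript instead put S100a6 and S100a10 above S100a11 and Anxa2 above Anxa6, and raised the levels of S100a6, S100a10, Anxa1, Anxa2 and Anxa4 by 1.64 to 1.77 times. Ahnak and Anxa4 were then level with vehicle (13.8 ± 0.674 and 13.7 ± 1.76 normalized CPM per kb), and Anxa4 was above Ahnak with 5D (14.2 ± 0.191 against 10.5 ± 0.214), so their order depends on the length used.

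With 5D the means were 616 ± 53.0 for S100a4, 408 ± 7.56 for S100a11, 401 ± 12.99 for S100a6 and 364 ± 6.15 for S100a10. They were 189 ± 0.660 for Anxa6, 149 ± 1.60 for Anxa2, 116 ± 2.18 for Anxa5, 65.9 ± 0.792 for Anxa1, 9.51 ± 0.194 for Ahnak and 8.04 ± 0.108 for Anxa4. Per kb of union exon length, the order of the 10 means was that of the vehicle libraries. Per kb, the 4 S100 members reached at least the level of 99.28% to 99.69% of the tested genes with a length. Ahnak reached that of 94.9% of the tested genes by its total level and of 73.7% per kb. Part of the Ahnak coding bases lies in stretches that occur more than once, and how reads from them were counted was not tested. The study's methods name the SMARTer Ultra Low Input RNA kit for the cDNA. How evenly that cDNA covered long and short transcripts was not tested either. The place of Ahnak per kb, against the short S100 transcripts above all, is therefore uncertain.

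Most of the other family members had almost no counts. Of 21 other S100, annexin and Ahnak-like genes listed, 17 were in the table, 8 had at most 3 counts in every library and 8 passed the filter. Among the first were S100a8 and S100a9, the calprotectin subunits of myeloid cells, with S100a9 at 0 throughout and S100a8 at 0, 3, 0 and 0 counts in vehicle replicates 1 and 2 and 5D replicates 1 and 2. None of the 8 tested genes was called in edgeR's quasi-likelihood test. At an unadjusted p under 0.05, 1 of them, S100a1, was higher, against 618 of all 17650 genes tested. DESeq2's Wald test and limma-voom called none of the 8 either.

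S100a1 is better known from heart and skeletal muscle. It had 20.7 and 17.5 normalized CPM with vehicle and 23.0 and 25.4 with 5D, a log2 fold change of 0.34 (SE 0.13) at an edgeR adjusted p of 0.612. Its groups did not overlap. S100a13, which assists the release of proteins that lack a signal peptide, had 129 to 137 normalized CPM over the 4 libraries, a log2 fold change of 0.035 (SE 0.060). Anxa7 (157 to 171) and Anxa11 (152 to 154), annexins of secretory and RNA granules, had 0.048 (SE 0.058) and 0.0027 (SE 0.056). S100a3, Anxa3, Anxa9 and Ahnak2 had at most 66 counts in any library and log2 fold changes with standard errors of 0.35 to 1.48. Differences within those errors were not detectable, and larger ones could also be missed.

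The proteins that these genes work with were read from a list of 30 partners, including calpains, ESCRT genes, calcium channel beta subunits bound by Ahnak, and receptors. Of these, 28 were in the table and 26 were tested, 9 with a negative and 17 with a positive log2 fold change. None was called in edgeR's quasi-likelihood test, and DESeq2's Wald test called none. At an unadjusted p under 0.05 in edgeR, 1 partner was higher and 0 were lower, against 618 and 678 of all 17650 genes tested. The median of the partners was 0.026, close to that of all genes tested.

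The 3 partners with the smallest p-values were Actb, Capn2 and Cast. Actb, the cortical actin to which the scaffold is tied, had 14859 and 14732 normalized CPM with vehicle and 15555 and 16431 with 5D. Its log2 fold change was 0.11 (SE 0.026) at an edgeR adjusted p of 0.320, and it was called by limma-voom and when 5D replicate 1 was left out. Capn2, the catalytic subunit of m-calpain, had 832 and 817 with vehicle and 881 and 862 with 5D, or 0.080 (SE 0.038, adjusted p 0.687). Cast, the calpain inhibitor, had 219 and 195 with vehicle and 227 and 224 with 5D, or 0.12 (SE 0.061, adjusted p 0.715). Over the whole partner list both 5D libraries were above both vehicle libraries in 9 of the 26 tested genes and below them in 2, against 18.7% and 18.8% of all genes.

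Among the partners, Myh9, Cacybp and Sri gave values near 0. Myh9, the myosin heavy chain that S100a4 binds, had a log2 fold change of -0.027 (SE 0.043), and Cacybp, the calcyclin-binding partner of S100a6, had -0.075 (SE 0.053). Sri, or sorcin, which binds Anxa7, had 0.011 (SE 0.051). Some other partners lay further from 0. Pdcd6 had -0.11 (SE 0.069), Plau -0.15 (SE 0.21), Plaur 0.28 (SE 0.24) and Ager 0.24 (SE 0.75). Of the calcium channel beta subunits, through which Ahnak is known to meet L-type channels, Cacnb1 to Cacnb4 had at most 87 counts in any library. Cacnb1 had a log2 fold change of -0.24 (SE 0.36), Cacnb4 -1.07 (SE 0.65) and Cacnb3 0.95 (SE 0.53), none of them called, and Cacnb2 was not tested. Cacnb3 had 10 and 25 counts with vehicle and 38 and 52 with 5D. The ferlins Dysf and Myof of muscle membrane repair had at most 8 and 6 counts.

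The 5 genes whose pattern over the 4 libraries lay nearest that of Ahnak, among 8736 others of at least 10 normalized CPM, were Gm49339, Pla2g15, Acp5, Ppp1r21 and Rtl8a. Likeness was the Euclidean distance between log2 levels centred on each gene's mean, and it ran from 0.031 to 0.053. The choice over both groups fixed log2 fold changes close to that of Ahnak, and they were between -0.38 and -0.35. Their edgeR adjusted p-values were 0.265 to 0.633, so none was called. With union exon lengths of 1195 to 4255 bases, none of the 5 was near the length of Ahnak. Of all 8681 genes of that level with a length, 487 were over 12 kb, so nothing is read from the lengths of the 5. Pla2g15 and Acp5 encode lysosomal enzymes.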

How the data were processed

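RNA of sorted mouse lung ILC2s was sequenced in 2 vehicle and 2 5D libraries, grouped by their titles. The authors aligned reads with STAR 2.6.1 to mm10, quantified them in Partek with the GENCODE M21 annotation and deposited estimated counts per gene before normalization, with base calls from CASAVA 1.8.2. Of the nonzero values in a library 44.7% to 46.8% were exactly whole, so all were rounded here. Upper-quartile factors over all genes set the scale. A gene was tested if its normalized counts averaged 1 or more and summed to 10 or more. 5D was compared with vehicle in edgeR 4.0.16 (quasi-likelihood, two-sided, no covariates, Benjamini-Hochberg adjustment over the 17650 genes tested), in R 4.3.3. Partek's Gene Set Analysis, used in the study, was not run. An exact permutation test of 1 gene cannot go below 0.333 with 2 libraries per group. Replicates differed by more than counting noise (chi-square per gene 6.71 and 7.56).

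The members and gene lists were chosen with earlier results of these data known, so the members' differences are described by fold change and standard error. Whether a member was called is stated without its p-value, and nothing is read from a call. Named were all members, each tested family gene, called partners and the 3 with the smallest p-values, the 5 genes nearest Ahnak in pattern, and overlapping or near-identical genes; other genes named were chosen after their values were seen. Lengths, coordinates and coding sequences come from GENCODE M21, and promoters from RefSeq (GRCm38.p6), in which 8 of the 10 members had an entry. BLAST 2.17.0 was used to find near-identical genes (at least 150 nt at 95% identity). Alternatives were TMM, DESeq2's size factors and Wald test (1.42.0), limma-voom (3.58.1), no filter, filterByExpr, a replicate block, length offsets and leaving out each library. Offsets on GC content and on longest transcript length were chosen after seeing the data. The code was tested on simulated data.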

Additional observations from a re-analysis of the deposited data

How the results depend on the processing

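Over the 10 alternatives on all libraries each member kept the sign of its log2 fold change, and Ahnak ranged from -0.39 to -0.33. Offsets on the longest transcript's length, chosen after seeing the data, left 0 members called lower in place of 1. Leaving out a library gave 0 to 1 members called lower (0 without 5D replicate 2, where Ahnak's call ended) and 0 to 1 partners called (1, Actb, without 5D replicate 1), with Ahnak from -0.45 to -0.35. The signs of S100a4 (without 5D replicate 1), S100a10 (without vehicle replicate 1 or 5D replicate 2) and Anxa4 (without vehicle replicate 2) turned. These fits assume that a lone library varies like the other group. limma-voom called 1 partner, Actb, in place of 0. The cause of these changes was not tested. With the replicate number as a block, 1 member was called lower and 0 higher as without it, while calls over all genes went from 12 lower and 5 higher to 32 and 9. The labels do not say whether libraries of the same number are paired. The deviations of the libraries numbered 1 correlated at 0.02 over 11180 genes, which cannot settle it. The fit with the replicate block was given no more weight than the main one. Over all genes, calls lower and higher were 35 and 11 without a filter, 43 and 17 with DESeq2's Wald test, 23 and 9 with limma-voom, 19 and 7 with filterByExpr, and from 12 to 107 lower and 3 to 73 higher when a library was left out, the most without vehicle replicate 1. Scaling moved the median of all genes by less than 0.1. With 2 libraries per group, differences within the standard errors given were not detectable, and larger ones could be missed too. Anxa1 (0.22, SE 0.055) and Actb (0.11, SE 0.026), several times their errors, were not called in the main fit.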
